A study of Mus musculus with 5 samples.

Results

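The HoxD cluster of the mouse holds 9 homeobox genes, Hoxd1, Hoxd3, Hoxd4, Hoxd8, Hoxd9, Hoxd10, Hoxd11, Hoxd12 and Hoxd13, and Evx2 lies beside Hoxd13. These 10 genes were taken by name from 22350 protein-coding genes of GENCODE vM1, and the peaks that RING1B chromatin immunoprecipitation followed by sequencing (ChIP-Seq) gave along them were read gene by gene. Mouse embryonic fibroblasts (MEFs) with floxed EED alleles were the parental cells of every line. The control group was these parental cells, the EZHIP group had been transduced with a lentivirus for stable expression of human EZHIP, and the H3.3 K27M group with a lentivirus for the mutant histone H3.3 K27M. The series has 5 samples with 1 library in each group, of which the peak lists of control, H3.3 K27M and EZHIP cells were used. The cells expressing H3.3 K27R and the EED deletion line, which was grown from a single clone, were not analysed here. A peak list holds no expression level, so the identity of the fibroblasts could not be checked from marker genes.

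RING1B is the catalytic subunit of Polycomb Repressive Complex 1 (PRC1), which ubiquitinates histone H2A and holds developmental genes in a silent state. PRC2, whose subunit EED reads H3K27me3, places that mark, and CBX proteins of PRC1 bind it. EZHIP and H3.3 K27M are both inhibitors of PRC2, so the lists allow the question of how far RING1B peaks extend over these genes in cells with either inhibitor. Hox genes lie in the order in which they are used along the body axis, with the low group numbers used towards the head and the high group numbers towards the tail and the tips of the limbs. Polycomb complexes keep the parts of a Hox cluster that a cell does not use in a silent state, and fibroblasts keep a Hox pattern that goes with the place in the body they came from.

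Positions are on mm9 (NCBIM37) chromosome 2, counted from 1. Evx2 is transcribed from the minus strand and the 9 Hoxd genes from the plus strand. In genomic order the starts run Evx2, Hoxd13, Hoxd12, Hoxd11, Hoxd10, Hoxd9, Hoxd8, Hoxd3, Hoxd4, Hoxd1. Neighbouring starts from Evx2 to Hoxd4 are 4463 to 11698 bases apart, and the last step, from Hoxd4 to Hoxd1, is 41002 bases. The end of Hoxd13 that faces Evx2 is called the posterior side of the cluster and the end at Hoxd1 the anterior side.

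The sequences printed here are those just before the starts on either side of the anterior edges. No anterior edge of a broad peak falls in them. The control peak ended 1662 bases past the Hoxd9 start. The H3.3 K27M and EZHIP peaks ended 2452 and 252 bases past the Hoxd10 start. The 250 bases before 5 of these starts are given from the plus strand, 5′ to 3′, with each CpG dinucleotide in capitals, because CpG-rich sequence is a known feature of the places where Polycomb complexes gather. None of the 5 stretches overlaps an annotated exon. They are Hoxd10 (chr2:74528897-74529146), inside a peak in all 3 lists, then Hoxd9 (chr2:74535487-74535736), inside the control peak alone, then Hoxd8 (chr2:74542422-74542671) and Hoxd3 (chr2:74549736-74549985), reached in part by the small control peaks, and Hoxd4 (chr2:74559785-74560034), outside every peak.
Hoxd10: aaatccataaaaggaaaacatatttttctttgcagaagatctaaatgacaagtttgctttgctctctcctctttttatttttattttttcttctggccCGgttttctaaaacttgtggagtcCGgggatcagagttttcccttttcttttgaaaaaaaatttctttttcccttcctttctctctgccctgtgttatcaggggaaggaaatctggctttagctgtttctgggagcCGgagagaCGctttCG
Hoxd9: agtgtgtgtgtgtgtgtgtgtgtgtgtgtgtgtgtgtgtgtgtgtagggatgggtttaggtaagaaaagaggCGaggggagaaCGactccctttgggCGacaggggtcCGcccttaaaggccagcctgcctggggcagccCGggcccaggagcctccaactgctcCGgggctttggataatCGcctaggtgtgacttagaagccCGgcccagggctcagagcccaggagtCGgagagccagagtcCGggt
Hoxd8: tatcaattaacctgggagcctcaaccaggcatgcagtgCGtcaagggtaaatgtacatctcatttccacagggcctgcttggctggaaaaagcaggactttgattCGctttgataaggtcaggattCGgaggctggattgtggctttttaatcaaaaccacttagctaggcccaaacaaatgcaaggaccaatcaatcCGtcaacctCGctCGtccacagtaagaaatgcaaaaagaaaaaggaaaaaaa
Hoxd3: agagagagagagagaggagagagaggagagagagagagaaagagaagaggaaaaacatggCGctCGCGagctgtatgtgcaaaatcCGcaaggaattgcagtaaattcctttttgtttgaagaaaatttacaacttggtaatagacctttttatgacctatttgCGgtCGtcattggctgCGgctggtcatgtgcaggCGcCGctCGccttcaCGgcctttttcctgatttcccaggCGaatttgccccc
Hoxd4: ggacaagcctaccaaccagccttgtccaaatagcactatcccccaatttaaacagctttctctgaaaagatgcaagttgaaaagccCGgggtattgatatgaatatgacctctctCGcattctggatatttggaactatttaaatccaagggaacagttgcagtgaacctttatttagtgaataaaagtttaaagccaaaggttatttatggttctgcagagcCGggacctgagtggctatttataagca
The stretch before Hoxd10 held 5 CpG and was covered in every list. The stretch before Hoxd9 held 10 CpG at 61.2% G and C, and no base of it was covered in H3.3 K27M or EZHIP. The stretch before Hoxd3 had the most of the 5, 12 CpG, and the control peak covered 74% of it. Before Hoxd8 there were 6 CpG and 28.4% of the bases lay in a control peak, and before Hoxd4 there were 3 CpG and no coverage. Across 22345 protein-coding starts the median of the same stretch was 8 CpG, with quartiles of 3 and 18, and 92.5% of them held at least 1. Over the 631 protein-coding starts inside a control peak the median was higher, 18 CpG, with quartiles of 11 and 26. The order of the 5 stretches by CpG was therefore not their order by coverage.

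RING1B peaks lay over the posterior part of the cluster in all 3 lists, from beyond Evx2 to Hoxd10, and reached furthest in control. A gene was called when a peak overlapped its body or lay within 5000 bases of its start. By this rule control called 8 of the 10 genes, where 3.81% of all protein-coding genes were called in that list. The H3.3 K27M list called 6 of 10, against 1.21% of all genes, and the EZHIP list 5 of 10, against 1.32%. Evx2, Hoxd13, Hoxd12, Hoxd11 and Hoxd10 were called in every list. Hoxd9 was called in control and H3.3 K27M, Hoxd8 and Hoxd3 in control, and Hoxd4 and Hoxd1 in no list.

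Counted by the start base itself, 8 member starts lay inside a control peak, where 2.82% of all protein-coding starts did. In H3.3 K27M 5 of the 10 starts lay inside a peak, where the share of all starts was 0.743%. The EZHIP list also held 5 member starts, where the share of all starts was 0.595%. The 5 starts were those of Evx2, Hoxd13, Hoxd12, Hoxd11 and Hoxd10 in both lists. The 10 genes lie side by side and 1 control peak holds 6 of their starts, so these counts describe a single stretch of chromatin and not 10 separate genes. Each group is 1 library, so no replicate error could be set beside these counts, no test was possible, and every difference is one between single peak lists.

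**Figure D1:**
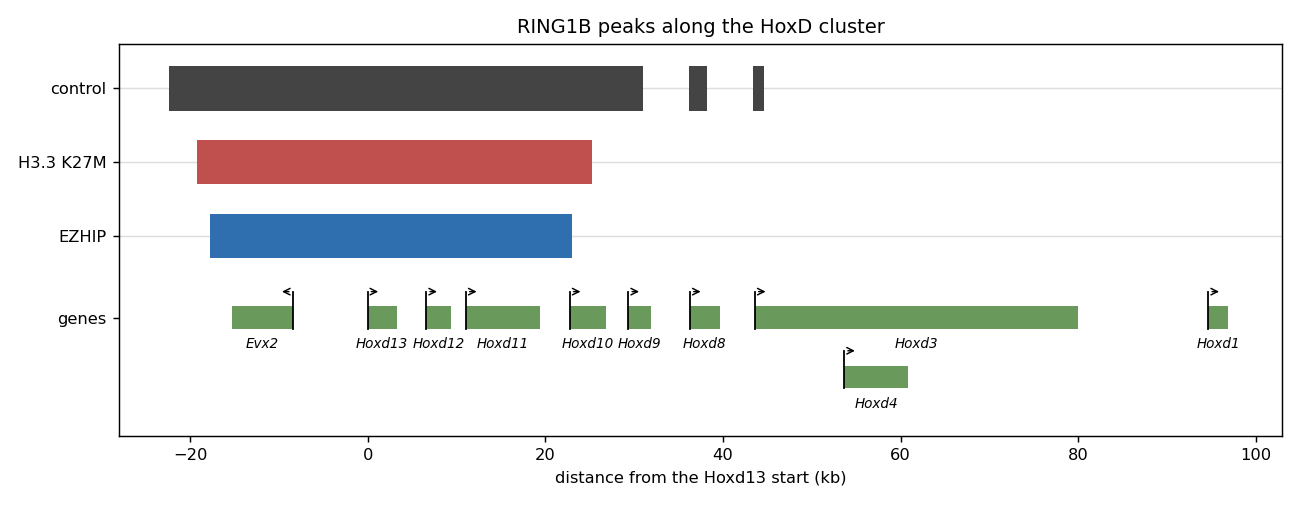
Peaks of the control, H3.3 K27M and EZHIP lists (1 library each) and the 10 genes, against distance from the Hoxd13 start in kb, with upright lines and arrows at the gene starts. The broad peak narrowed at both ends from control to H3.3 K27M to EZHIP, and the separate peaks at the starts of Hoxd8 and Hoxd3 were in the control list alone.

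Evx2 (ENSMUSG00000001815.8, chr2:74491049-74497918) encodes a homeobox transcription factor of the even-skipped family that is expressed with the posterior Hoxd genes in the limb bud. All of its 6870 bases lay in a peak in each list. The peaks ran on past its 3′ end, by 7048 bases in control, 3848 bases in H3.3 K27M and 2448 bases in EZHIP. In each list this posterior edge fell in intergenic sequence, so no other gene marked it.

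Hoxd13 (ENSMUSG00000001819.4, chr2:74506367-74509656) is needed for the digits and the genital region, and its mutations cause synpolydactyly. Hoxd12 (ENSMUSG00000001823.4, chr2:74512986-74515763) acts in the same distal limb domain. Hoxd11 (ENSMUSG00000042499.10, chr2:74517449-74525798) patterns the forearm and kidney together with its HoxA paralogue. The bodies of these 3 genes were covered over 100% of their length in all 3 lists. The record of Hoxd11 begins with a noncoding transcript, and its first coding base, 74520450, was covered as well.

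Hoxd10 (ENSMUSG00000050368.3, chr2:74529147-74533163), which takes part in the patterning of the hindlimb and its motor neurons, was the gene in which the lists parted. Its 4017 bases were covered over 100% in control, 61.1% in H3.3 K27M and 6.3% in EZHIP, or 4017, 2453 and 253 bases. The H3.3 K27M peak ended in an intron of Hoxd10, 2452 bases past the gene start. The EZHIP peak ended in the 5′ untranslated region, 252 bases past the start, so its first coding base, 74530037, lay inside the H3.3 K27M peak and outside the EZHIP peak. Hoxd10 is therefore counted among the EZHIP starts by the gene start and not by the first coding base. Counted by first coding bases, the EZHIP list held 4 members, H3.3 K27M 5 and control 7.

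Hoxd9 (ENSMUSG00000043342.8, chr2:74535737-74538265) acts in the proximal limb and trunk. In control 65.8% of its body, 1663 bases, was covered, and the broad control peak ended inside its coding sequence. No base of Hoxd9 was covered in H3.3 K27M or EZHIP. Its start lay 4138 bases from the H3.3 K27M peak, just inside the limit of 5000 bases, and 6338 bases from the EZHIP peak, just outside it. The single gene by which the H3.3 K27M and EZHIP counts differed thus rested on that limit. With a limit of 1000 bases both lists called 5 members, and with a limit of 10000 bases both called 6.

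Hoxd8 (ENSMUSG00000027102.4, chr2:74542672-74545990), a gene of the trunk, had a peak of its own in control. This peak, chr2:74542601-74544599, spanned 1999 bases and covered 58.1% of the gene, 1928 bases, from just before its start into its coding exon. The nearest peak to the Hoxd8 start was 11073 bases away in H3.3 K27M and 13273 bases away in EZHIP.

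Hoxd3 (ENSMUSG00000079277.2, chr2:74549986-74586331) shapes the first vertebrae of the neck. Its record is 36346 bases long and runs over Hoxd4, and its first coding base, 74582069, is far from its start. In control a peak at chr2:74549801-74550999 lay over the start and covered 2.79% of the body, 1014 bases. At 1199 bases this peak is as narrow as the narrowest peak of the whole control list. The nearest peak to the Hoxd3 start was 18387 bases away in H3.3 K27M and 20587 bases away in EZHIP.

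Hoxd4 (ENSMUSG00000042464.6, chr2:74560035-74567217), expressed up to the hindbrain, and Hoxd1 (ENSMUSG00000042448.3, chr2:74601037-74603200), which acts in pain-sensing neurons of the mouse, had no covered base in any list. The nearest control peak was 9036 bases from the Hoxd4 start and 50038 bases from the Hoxd1 start. The corresponding distances were 28436 and 69438 bases in H3.3 K27M, and 30636 and 71638 bases in EZHIP. Hoxd4 was called in control when the limit was widened to 10000 bases, which brought the control count to 9. Hoxd1 was called under no setting that was run.

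**Figure D2:**
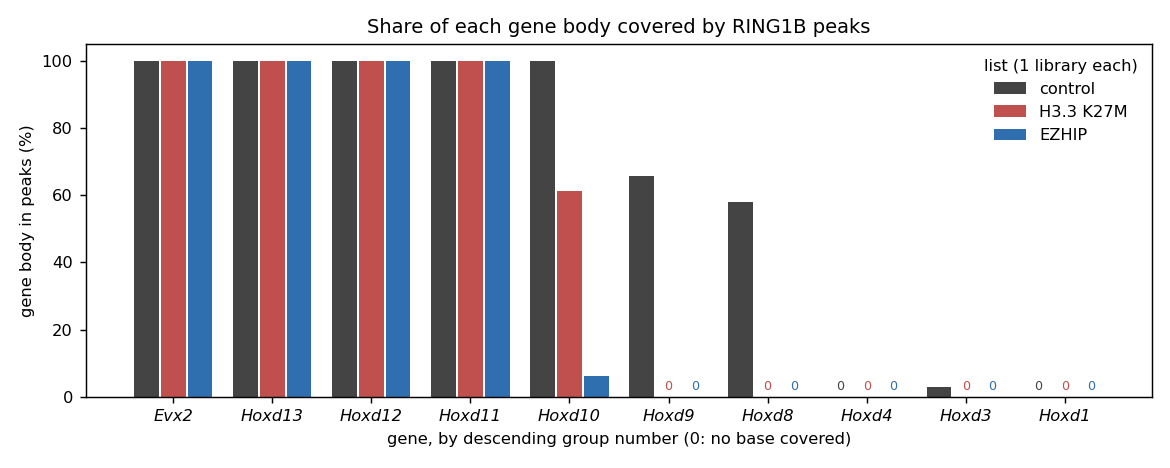
Percentage of each gene body covered by peaks (vertical axis) for the 10 genes in descending group number, with 1 bar for each of the 3 lists and a 0 where no base was covered. Evx2 to Hoxd11 stood at 100% in every list, Hoxd10 fell from 100% in control to 61.1% in H3.3 K27M and 6.3% in EZHIP, and Hoxd9, Hoxd8 and Hoxd3 had coverage in control alone.

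Along the cluster the 3 lists differed at both edges of the broad peak. The control peak was chr2:74484001-74537399, the H3.3 K27M peak chr2:74487201-74531599 and the EZHIP peak chr2:74488601-74529399, so that each lay inside the one named before it. On the posterior side the H3.3 K27M peak began 3200 bases and the EZHIP peak 4600 bases inside the control edge. On the anterior side they ended 5800 and 8000 bases inside it, or 19400 and 21600 bases when peaks within 10000 bases of each other were merged, since the control edge then moved to Hoxd3. In both lists the anterior edge lay further inside than the posterior edge. The step of the peak calls is 200 bases, and these distances are whole multiples of it.

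The rest of the control coverage was the pair of peaks at Hoxd8 and Hoxd3, which followed the broad peak after gaps of 5201 bases each. In a window from 5000 bases before the end of Evx2 to 5000 bases after Hoxd1, 122152 bases in all, control peaks covered 54549 bases (44.7%). The window leaves out the outermost end of the control peak. The H3.3 K27M peak covered 44399 bases (36.3%), 0.814 times the control length, and the EZHIP peak 40799 bases (33.4%), 0.748 times. When peaks within 10000 bases of each other were merged, the control peaks joined into 1 block of 66999 bases whose anterior edge lay in Hoxd3, and the ratios became 0.684 and 0.628. When each list was limited to its 286 widest peaks, the peaks at Hoxd8 and Hoxd3 dropped out, control called 6 members as H3.3 K27M did, and the ratios were 0.865 and 0.795. The lists have no common minimum width: the narrowest peak was 1199 bases in control and 399 bases in each of the other lists. The deposited lists thus depart from the calling parameters in the methods of the study, since the gaps at HoxD are below the stated maximum gap and the narrowest H3.3 K27M and EZHIP peaks below the stated minimum size. A control list with shorter peaks could not be examined, and the part of peak calling in these differences was not tested.

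Other annotated genes lie among the members, most of them noncoding. Of the 7 other annotated genes in the window, control called 3 and the other lists 2 each. Gm20440, a noncoding transcript record that runs from within Hoxd11 into Hoxd10, was covered over 100% of its body in control, 93.9% in H3.3 K27M and 73.5% in EZHIP. Gm14396, a predicted protein-coding gene between Hoxd10 and Hoxd9, was covered in full in control and not at all in the other lists, which called it by distance alone, at 1978 bases in H3.3 K27M and 4178 bases in EZHIP. The antisense RNA gene 1700109F18Rik (Hoxd3os1 in RefSeq), which overlaps Hoxd8 and the start of Hoxd3, was covered over 24.8% of its body in control and had no covered base in the others. Mir10b, the microRNA gene inside the Hoxd4 record, and 6720416L17Rik (Haglr in RefSeq), beside Hoxd1, had no call in any list, nor had Gm14424 and Gm14426.

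Outside the cluster the peaks stopped. Of the flanking genes Lnp, Mtx2, Atp5g3, Atf2, Chn1 and Hnrnpa3, which border the regulatory deserts on either side of HoxD or lie beyond them, Chn1 was called in control and EZHIP and none was called in H3.3 K27M. The next control peak lay 0.866 Mb beyond the posterior edge, at Chn1, and 0.424 Mb beyond the anterior edge of the Hoxd3 peak, where the nearest protein-coding start, that of Mtx2, was 310941 bases from it. The next EZHIP peaks lay 0.871 Mb and 19.5 Mb away, and the next H3.3 K27M peaks 1.37 Mb and 24 Mb away. The HoxD peak of each list was thus an isolated block on this stretch of chromosome 2.

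CpG content was read along the window in bins of 200 bases, a property that the choice of the genes did not use. The 204 bins covered in all 3 lists held 32.3 CpG per kb, and the 18 bins covered in control and H3.3 K27M held 31.1 CpG per kb. The 51 bins covered in control alone held 53.2 CpG per kb, and the 338 bins in no list held 20.4 CpG per kb. Of the 51 bins, the 16 in the control peaks at Hoxd8 and Hoxd3 held 85.9 CpG per kb. The 29 bins at the anterior end of the broad peak held 40.7 CpG per kb and the 6 at its posterior end 26.7 CpG per kb, the latter below the bins covered in all lists. Inside against outside the peaks, CpG per kb stood at 36.1 against 20.4 in control, 32.2 against 24.7 in H3.3 K27M and 32.3 against 25 in EZHIP. The bins are parts of a single stretch of chromatin and the lists share them, so these are descriptions with no test.

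**Figure D3:**
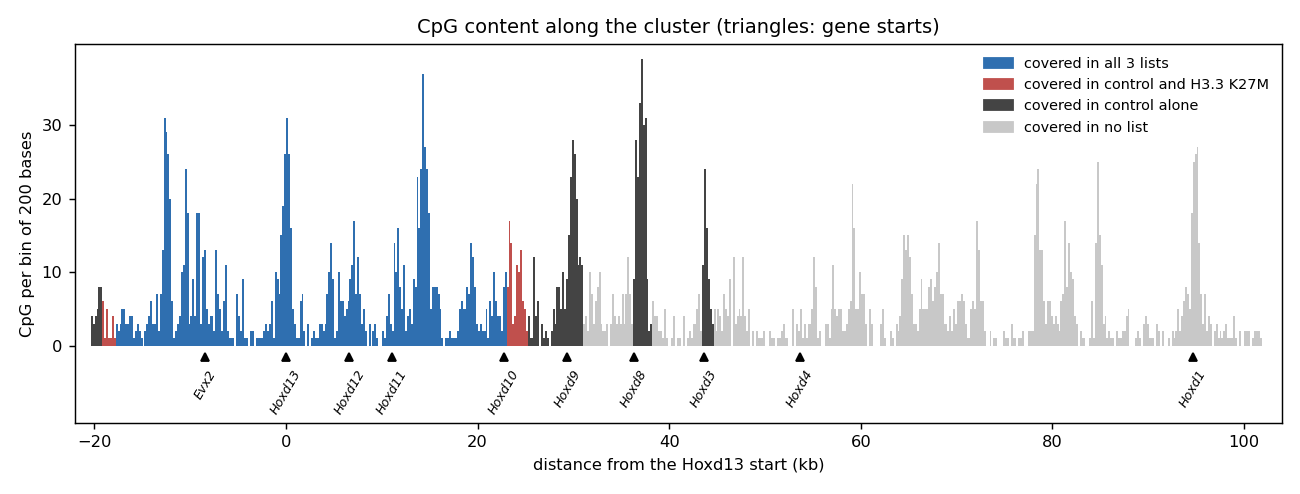
CpG per bin of 200 bases against distance from the Hoxd13 start in kb, with each bin coloured by the lists whose peaks cover it and triangles at the gene starts. The highest bin held 37 CpG among those covered in all lists, 39 in control alone, 27 in no list and 17 in control and H3.3 K27M.

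CpG-island-like stretches were built from windows of 500 bases in which G and C made up 55% or more and CpG occurred at 0.65 or more of the frequency its bases predict. There were 22 of them from Evx2 to Hoxd1. Over 50% of the stretch was covered for 14 of them in control, 11 in H3.3 K27M and 9 in EZHIP. The same 9 were covered in all 3 lists, and 8 were touched by no peak. The stretch over the Hoxd13 start (chr2:74505601-74507200) held 145 CpG and was covered in every list. A pair of stretches in Hoxd10, chr2:74529401-74530100 and chr2:74530401-74530900, was covered in control and H3.3 K27M and not in EZHIP. The first of them begins just after the last base of the EZHIP peak.

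The remaining 3 island-like stretches that were covered in control alone sit at the starts of Hoxd9, Hoxd8 and Hoxd3. The Hoxd9 stretch (chr2:74535601-74537200) held 144 CpG in 1600 bases, the length and nearly the CpG number of that at Hoxd13. The Hoxd8 stretch (chr2:74542501-74544300) held 205 CpG, the most of the 22, and the control peak covered 94.4% of it. The Hoxd3 stretch (chr2:74549701-74550600) held 62 CpG, 88.9% of it covered. At the Hoxd1 start a stretch of 121 CpG at 69.8% G and C (chr2:74600601-74601900) had no peak in any list. An island-like stretch over the start base itself thus went with a peak in all lists at Hoxd13, in control at Hoxd9, Hoxd8 and Hoxd3, and in none at Hoxd1. The starts of Evx2, Hoxd12, Hoxd11 and Hoxd10 lay outside such stretches but near them, at 318, 15, 152 and 254 bases. These nearby stretches were covered in all lists, except that of Hoxd10 in EZHIP. From the Hoxd4 start the nearest stretch was 5166 bases away.

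Counted in the 1000 bases around each start, the members spanned most of the range of protein-coding genes, whose median was 41 CpG with quartiles of 12 and 69. Hoxd13 had 117 CpG, and 96.9% of all protein-coding starts had fewer. Hoxd1 followed with 93, Hoxd8 with 69, Hoxd9 with 65 and Hoxd3 with 61. Hoxd12 had 41, Hoxd11 37, Evx2 36, Hoxd10 35 and Hoxd4 13. The 631 protein-coding starts inside a control peak had a median of 73 CpG, and among the 8 members of that group Hoxd13 alone lay above it. Evx2, Hoxd12, Hoxd11 and Hoxd10, each inside a peak in all lists, were at or below the median of all starts, and Hoxd1, in no peak, was above both medians.

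The HoxD peak was set beside the 152 regions of the genome in which peaks of all 3 lists overlap. The lists held 821 peaks in control, 286 in H3.3 K27M and 311 in EZHIP. Regions without a peak in every list are left out, so the ratios describe those that kept a peak under both inhibitors. At HoxD the comparison takes the broad control peak alone and leaves out the control peaks at Hoxd8 and Hoxd3. The EZHIP peaks covered 0.764 times the control length at HoxD, where the median region had 0.38 with quartiles of 0.149 and 0.64, and 131 regions had a lower ratio and 20 a higher one. For H3.3 K27M the HoxD ratio was 0.831, the median 0.626 with quartiles of 0.424 and 0.774, and 126 regions had a lower ratio and 25 a higher one. The 49 regions with 20000 or more control bases are closer to HoxD in width. Among these the median ratio was 0.421 in EZHIP, with 77.6% of the regions below HoxD, and 0.718 in H3.3 K27M, with 71.4% below HoxD. When regions were rebuilt from peaks merged within 10000 bases, a setting added after these values were seen, the HoxD ratios were 0.609 in EZHIP and 0.663 in H3.3 K27M, against medians of 0.387 and 0.626 over all regions, and 69.7% and 55.3% of all regions lay below HoxD. Of the 52 regions with 20000 or more control bases, 63.5% then lay below HoxD in EZHIP, with a median of 0.42. In H3.3 K27M 42.3% did, and there the HoxD ratio was under the median of 0.699. The order seen at HoxD, with EZHIP peaks inside H3.3 K27M peaks inside control peaks, was found in 88 of the 152 regions (57.9%) and was thus common to most shared regions.

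**Figure D4:**
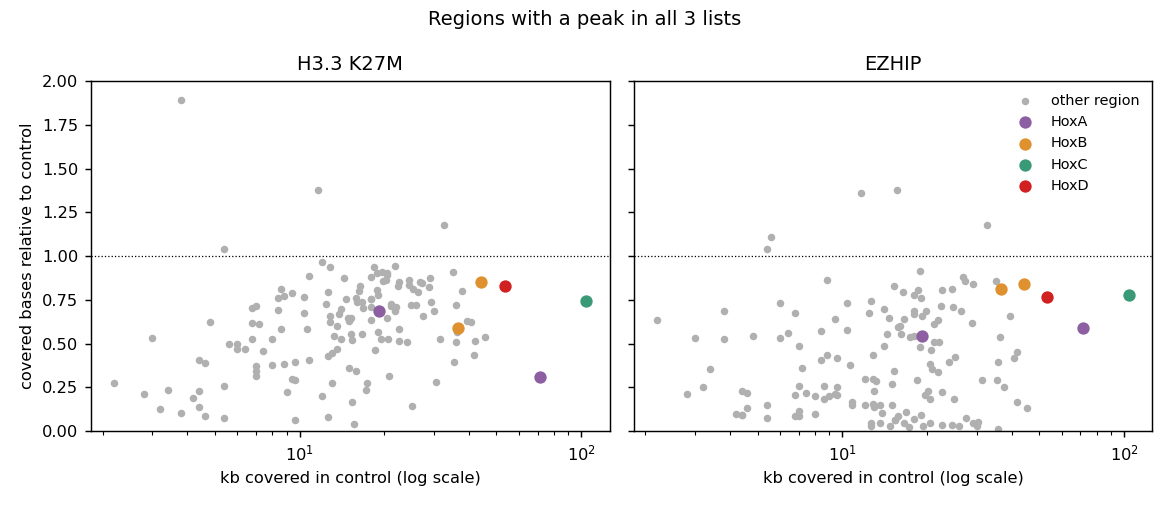
Covered bases in H3.3 K27M (left) and EZHIP (right) relative to control, against the kb covered in control on a log scale, for the 152 regions with peaks in all 3 lists, Hox regions in colour. HoxD stood at 0.831 and 0.764, above the medians of 0.626 and 0.38, and 25 and 20 regions stood above it, with the small control peaks at Hoxd8 and Hoxd3 left out.

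In HoxD the broad peak reached past the Hoxd10 start under both inhibitors, over 6.3% of the gene in EZHIP, and in HoxC it reached past the start of Hoxc9 under both, with Hoxc10 covered in full. In HoxA with Evx1, control called 9 of 12 genes, H3.3 K27M 3 and EZHIP 6. The counts were 8, 2 and 4 of 10 in HoxB and 9, 5 and 7 of 9 in HoxC. HoxD, at 8, 6 and 5 of 10, was the cluster in which EZHIP called fewer genes than H3.3 K27M, and that order turned on the distance of Hoxd9 given above. By starts inside a peak, H3.3 K27M and EZHIP held 2 and 5 in HoxA with Evx1, 2 and 3 in HoxB, 5 each in HoxC and 5 each in HoxD.

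The peak that holds the group 13 gene could be compared edge by edge. At HoxA the H3.3 K27M peak ended 43800 bases inside the anterior control edge and kept Hoxa13 as its only Hox start, and the EZHIP peak ended 23600 bases inside it and reached Hoxa9. At HoxC the anterior shifts were 15400 bases in H3.3 K27M and 16600 bases in EZHIP, and both peaks reached Hoxc9. At Hoxb13, whose peak holds no other Hox start, the shifts were 2400 and 1600 bases, and both were below the posterior shifts of 4200 and 5400 bases. The 5800 and 8000 bases at HoxD were thus smaller than those at HoxA and HoxC and larger than those at Hoxb13. With peaks within 10000 bases merged, the shifts were 19400 and 21600 bases at HoxD and 31800 and 33000 bases at HoxC. Those at HoxA and Hoxb13 stayed as they were. The place of HoxD, below HoxA and HoxC and above Hoxb13, held in both lists. In EZHIP the shift at HoxC was then larger than the 23600 bases at HoxA, where it had been smaller before. Of these 4 peaks, that of HoxD was the one with the EZHIP peak inside the H3.3 K27M peak.

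**Figure D5:**
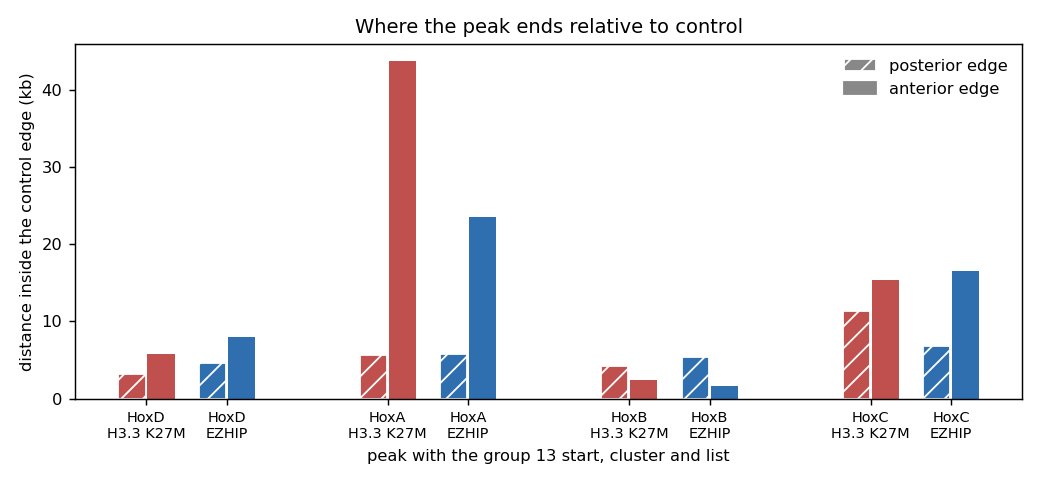
Distance in kb by which the H3.3 K27M and EZHIP peaks (red and blue) stop inside the control peak at the posterior edge (hatched) and the anterior edge (plain), for the peak with the group 13 gene of each Hox cluster. At HoxD the anterior shifts were 5.8 and 8 kb, against 43.8 and 23.6 kb at HoxA, 15.4 and 16.6 kb at HoxC and 2.4 and 1.6 kb at HoxB.

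Some paralogues of the genes at the HoxD edge had the coverage of their HoxD counterpart and others did not. Evx1, the paralogue of Evx2, was covered over 100% in all 3 lists, as Evx2 was. Of the group 10 genes, Hoxc10 was covered in full in every list, and Hoxa10 in full in control and EZHIP with no covered base in H3.3 K27M, where Hoxd10 had more coverage in H3.3 K27M than in EZHIP. Of the group 9 genes, the H3.3 K27M and EZHIP shares were 0 and 58.7% for Hoxa9, 23.9 and 100% for Hoxb9 and 89.3 and 75.4% for Hoxc9, and 0 in both for Hoxd9. Hoxc8 resembled Hoxd8 in having coverage in control alone, whereas Hoxb8 was covered over 52.1% in EZHIP. Hoxa3 and Hoxb3 had coverage in control alone, like Hoxd3, at 21.1 and 49.5% of the body. Of the group 4 genes, Hoxa4 had no covered base in any list, as Hoxd4 had none, and Hoxb4 and Hoxc4 were covered in control over 100 and 11.2% of the body.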

How the data were processed

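RING1B ChIP-Seq libraries were made by the authors from crosslinked chromatin digested with micrococcal nuclease. The submitters' processing notes name Bowtie 1.0.0 and deepTools and the mm9 genome, and per the methods of the study broad peaks were called with MOSAiCS-HMM, a hidden Markov model on genomic bins. Reads that match several places can be placed by Bowtie at its defaults, which can add signal in repeats. Each deposited list holds 3 columns, chromosome, start and end, with no score or read number, so the depth and its precision are unknown and no list could be adjusted for it. Positions are 1-based, and if the end column is inclusive each end is 1 base larger.

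Overlaps, distances and CpG counts were computed in Python 3.11.15 with numpy 2.4.6 and plotted with matplotlib 3.10.9, with GENCODE vM1 and the NCBIM37 sequence. No peak passed a chromosome end (0 found). The code was tested on simulated peaks. RefSeq gave names only, and the printed sequences come from NCBIM37. The named genes were all 10 members, the paralogues of those at the edges of coverage, and a fixed list of flanking genes, and sequences were printed for starts on either side of the anterior edges. The members and lists were chosen with earlier results of these data known. Alternatives were start windows of 1000 and 10000 bases, peaks of at least 1000 bases, the 286 widest peaks per list, peaks within 10000 bases merged, coding spans and transcript starts, narrower and wider windows, bins of 1000 bases and a looser island rule. H3.3 K27R and the EED deletion line were left out, having no list here.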

Additional observations from a re-analysis of the deposited data

How the results depend on the processing

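Of 71 values recomputed for 24 results, all but 2 stayed within the limits set for a change. These limits were 1.5 times for counts, shares and ratios and 200 bases for edges. Each list was scored by itself, so a difference between lists that was lost did not count as a change. The first exception was the anterior control edge, which lay 31032 bases from the Hoxd13 start and 44632 bases when peaks within 10000 bases were merged, so the H3.3 K27M and EZHIP peaks then ended 19400 and 21600 bases inside it. The second was the share of the wide shared regions with an H3.3 K27M ratio below that of HoxD. It was 71.4% and became 42.3% under the same merging, a setting chosen after seeing the data. HoxD thereby passed from above the median of these regions, 0.831 against 0.718, to below it, 0.663 against 0.699. The count of called members ranged from 6 to 9 in control, 5 to 6 in H3.3 K27M and 5 to 6 in EZHIP. The covered length relative to control ranged from 0.684 to 0.865 in H3.3 K27M and from 0.628 to 0.795 in EZHIP. Depth is unknown, and 1 library per group leaves no replicate check.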
